A study of Homo sapiens with 18 samples.

Results

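10 members of the tumour necrosis factor (TNF) superfamily were followed in OVCAR3 cells given IgA or IgG. The members were the ligands TNF, TNFSF10 (TRAIL) and TNFSF15 (TL1A), the death receptors TNFRSF1A (TNFR1), TNFRSF10A and TNFRSF10B (TRAIL receptors), FAS and TNFRSF21 (DR6), and the receptors TNFRSF9 (4-1BB) and TNFRSF12A (Fn14, the receptor of TWEAK). They were chosen by name with earlier results of these libraries known, and are 10 of the 55765 gene rows in each table of counts. Their values are therefore a description, with no p-value. Where the number of members past the threshold of the fit over all genes is given, the share of all genes past it stands beside it, and it supports nothing about the members. P-values are given only for other genes of the pathway.

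RNA sequencing measured gene expression in OVCAR3, an established line of high-grade serous ovarian cancer cells that carries the polymeric immunoglobulin receptor (pIgR), the epithelial receptor that binds and transports IgA. There were 18 libraries, in 6 groups of 3, processed as 2 series of 9. In the first series cells received IgA or IgG of no chosen antigen specificity at 0.5 µg/ml, or stayed untreated. In the second they received IgA against the neurotrophin BDNF or IgA against the tetraspanin TSPAN7, both at 0.5 µg/ml, or stayed untreated. All 6 groups were OVCAR3 cells grown in RPMI medium with 2% fetal bovine serum, no genetic change is named for any of them, and the antigen-specific antibodies came from immortalised B cells of tumours. The labels and the methods give 24 h of incubation, whereas legends of the supplementary data give 8 h. The samples are a single cell line. The labels do not say whether the 3 replicates of a group were separate cultures. The study counts the 3 of the first series as experiments and describes its replicates in general as biological or independent, and p-values measure the spread between these libraries. Groups were compared only within a series.

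The first series held 27920733 to 42371474 counts per library and the second 39254350 to 47381836. One library stood apart. Mitochondrial genes supplied 19.1% of the counts of IgA replicate 3 and 5.75% to 10.2% in the other libraries. All 8 markers of serous epithelium were present in each group, but not at equal levels. WT1 had 2028, 2807 and 1093 normalised counts with IgA and 4152 to 5099.7 in the IgG and untreated libraries, KRT8 had 25116 to 27343 against 28972 to 38105, and PAX8 had 21885 to 27819 against 17506 to 20949. The part of these differences in the results was not tested. The 13 immune markers summed to between 29.3 and 74.95 normalised counts per library, and the T cell gene CD3E, the cytotoxic gene NKG7 and the immunoglobulin genes IGHA1, IGHA2, IGHG1 and IGKC were at or near 0. The leukocyte gene PTPRC was not. It had 39.2, 55.96 and 15.8 normalised counts with IgA and 13.5 to 25.2 in the IgG and untreated libraries. In the second series it had 17.1 to 18.98 with BDNF IgA, 10.8 to 25.3 with TSPAN7 IgA and 6.08 to 9.03 untreated. The monocyte gene CD14 had 8.99 to 40.6 over all libraries. The part of these in the results was not tested. The 3 fibroblast and endothelial markers with a row summed to 805 to 1321 normalised counts with IgA, 665 to 737 with IgG and 662 to 905 in untreated cells, nearly all of it COL1A1, and the part of this in the results was not tested. In bulk RNA, fewer cells of a type and less RNA per cell cannot be told apart.

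Ligands of this family are made as trimers on the cell surface, from which proteases can shed them, and they bind trimeric receptors on the same or neighbouring cells. Death receptors carry a death domain in the cytoplasm. Through adaptors such as FADD and TRADD the domain can lead to caspase-8 and apoptosis, or through RIPK1, TRAF2 and ubiquitin ligases to NF-kB and inflammatory transcription. TNFRSF9 and TNFRSF12A have no death domain and signal through TRAF proteins.

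The promoters of TNF, TNFSF10 and TNFRSF9 are shown because TNF and TNFSF10 were the 2 of the 3 member ligands that differed most between IgA and IgG, in opposite directions with non-specific IgA, and TNFRSF9 had more of the motifs searched than any other member. Each is RefSeq sequence of 300 bases on GRCh38.p14, 250 before and 50 from the transcription start, read 5′ to 3′ on the strand of the gene. Capitals mark matches to 3 motifs searched on both strands, which are the NF-kB consensus, the AP-1 site TGANTCA and the core of the interferon-stimulated response element. The regions are chr6:31575315-31575614 (plus strand) for TNF, chr3:172523381-172523680 (minus strand) for TNFSF10 and chr1:7940790-7941089 (minus strand) for TNFRSF9.
TNF: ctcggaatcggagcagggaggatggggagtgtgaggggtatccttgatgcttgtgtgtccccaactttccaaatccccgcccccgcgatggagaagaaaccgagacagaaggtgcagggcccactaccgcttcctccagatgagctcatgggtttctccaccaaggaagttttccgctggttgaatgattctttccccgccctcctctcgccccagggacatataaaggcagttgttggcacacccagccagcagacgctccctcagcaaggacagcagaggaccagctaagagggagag
TNFSF10: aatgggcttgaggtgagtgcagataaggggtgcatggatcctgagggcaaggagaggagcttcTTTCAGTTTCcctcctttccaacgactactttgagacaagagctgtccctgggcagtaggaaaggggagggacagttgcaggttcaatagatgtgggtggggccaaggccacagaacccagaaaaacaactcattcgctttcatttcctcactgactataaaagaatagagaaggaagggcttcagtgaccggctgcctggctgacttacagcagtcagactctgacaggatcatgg
TNFRSF9: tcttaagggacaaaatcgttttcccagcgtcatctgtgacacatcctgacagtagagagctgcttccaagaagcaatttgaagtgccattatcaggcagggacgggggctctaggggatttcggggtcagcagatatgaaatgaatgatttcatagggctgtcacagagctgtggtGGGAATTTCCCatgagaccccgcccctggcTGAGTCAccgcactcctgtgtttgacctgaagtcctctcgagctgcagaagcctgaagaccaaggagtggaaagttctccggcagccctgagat
The TNF window held none of the 3 motifs. The TNFSF10 window held a match to the interferon-stimulated response element core at position -187 from the start, which 3.57% of 35116 promoter windows of the same length also held. The TNFRSF9 window held overlapping NF-kB matches from position -74, a motif found in 11.3% of windows, and an AP-1 match at -44, a motif found in 7.71%. Of the other 4 members with a promoter in the table, TNFSF15 held an AP-1 match at -120 and FAS held one at -242, and TNFRSF1A and TNFRSF21 held none of the 3. A match is a description of letters. TNFRSF10A, TNFRSF10B and TNFRSF12A had no entry.

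Levels per length are RPKM, reads scaled to library size and to the joined length of all annotated exons of a gene (mean ± SD, n = 3). That length can exceed the transcript a cell makes, by an amount that differs between genes, and its part in the order of genes was not tested. Untreated cells of the first series gave 17.2 ± 0.90 for TNFRSF10B, 15.7 ± 0.68 for TNFRSF1A and 15.4 ± 2.00 for TNFRSF12A. Their libraries ran from 16.5 to 18.2, 14.9 to 16.3 and 13.3 to 17.3. TNFRSF12A thus overlapped both others, while TNFRSF10B and TNFRSF1A met in mean ± SD but not by library. TNFRSF21 followed at 12.5 ± 0.41, TNFRSF10A at 5.76 ± 0.79 and FAS at 3.79 ± 0.11. The ligand TNFSF10 stood at 2.63 ± 0.29, TNF at 0.42 ± 0.14 and TNFSF15 at 0.41 ± 0.06, the last pair within their spread. TNFRSF9 was lowest, at 0.0109 ± 0.0129 RPKM. In the second series TNFRSF12A (20.4 ± 0.86) and TNFRSF1A (19.7 ± 0.75) came first and could not be ordered, then TNFRSF10B (15.2 ± 0.29), TNFRSF21 (11.9 ± 0.20) and TNFRSF10A (5.59 ± 0.38). TNFSF10 (4.01 ± 0.25) and FAS (3.74 ± 0.34) overlapped there, and TNF (0.80 ± 0.16) lay above TNFSF15 (0.20 ± 0.02) and TNFRSF9 (0.0123 ± 0.0061).

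**Figure D1:**
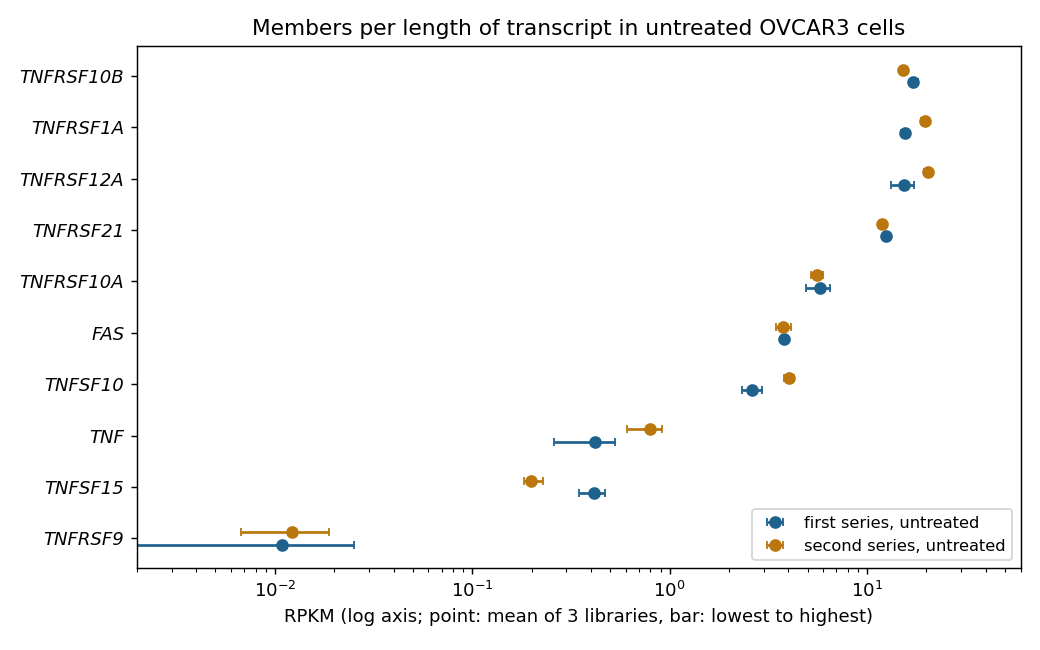
Level of each member per joined length of its annotated exons in untreated OVCAR3 cells (RPKM, log axis), with points for the mean of 3 libraries and bars from the lowest to the highest library, in the first series (blue) and the second (orange). The receptors other than TNFRSF9 lie above 3 RPKM and TNF and TNFSF15 below 1. The bar of TNFRSF9 in the first series runs to 0 and leaves the axis.

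TNF (chromosome 6, 31543342 to 31546113, GRCh37), the founding ligand of the family and a main inflammatory cytokine, had 969.8, 1075 and 1027 normalised counts in the 3 IgA libraries of the first series. Normalised here means that each library was brought to the average effective size of its series. It had 43.9, 27.3 and 17.6 in the IgG libraries and 28.03, 31.1 and 15.3 in the untreated ones. The lowest IgA library was thus far above every IgG and untreated library, and the latter groups overlapped. With IgA 19.7% of all genes tested lay wholly above IgG and 19.8% wholly above untreated cells. Means were 1024 ± 52.8 with IgA, 29.6 ± 13.3 with IgG and 24.8 ± 8.38 untreated (SD, n = 3). The log2 fold change was 5.09 with SE 0.29 against IgG, or 34.1-fold, and 5.37 with SE 0.29 against untreated cells, or 41.4-fold. Without IgA replicate 3 it was 5.09 and 5.37. In IgA cells TNF stood at 17.3 ± 0.89 RPKM, close to the level of TNFRSF10B in untreated cells (17.2 ± 0.90). TNF was also among the genes the study displayed.

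In the second series TNF had 102, 85.9 and 123.6 normalised counts with BDNF IgA, 117.8, 153.9 and 89.9 with TSPAN7 IgA and 64.8, 43.5 and 61.4 in untreated cells. Every library given IgA lay above every untreated one, and the 2 antibodies overlapped. The share of all genes wholly above the untreated libraries was 12.8% with BDNF IgA and 14.4% with TSPAN7 IgA. The log2 fold change was 0.87 with SE 0.22 for BDNF IgA (1.83-fold) and 1.09 with SE 0.22 for TSPAN7 IgA (2.13-fold). These comparisons share the untreated libraries. Between the antibodies, TSPAN7 IgA minus BDNF IgA, the log2 difference was 0.21 with SE 0.20.

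TNFSF10 (chromosome 3, 172223298 to 172241265, GRCh37) encodes TRAIL, the ligand of TNFRSF10A and TNFRSF10B, and was the only member called lower with non-specific IgA. It had 72.9, 110.9 and 67.9 normalised counts with IgA, 228.7, 237.6 and 359.0 with IgG and 317.7, 283.3 and 354.5 in untreated cells. The highest IgA library lay below the lowest IgG and the lowest untreated library, as in 20.6% of all genes against IgG and 20.1% against untreated cells. The log2 fold change was -1.70 with SE 0.24 against IgG and -1.91 with SE 0.24 against untreated cells, and -1.57 and -1.79 without IgA replicate 3.

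In the second series TNFSF10 was higher with both antibodies. It had 1245, 973.9 and 1899 normalised counts with BDNF IgA, 858.8, 880.1 and 898.6 with TSPAN7 IgA and 557.2, 626.1 and 572.5 in untreated cells. The 3 groups did not overlap. Of all genes, 12.8% lay wholly above untreated cells with BDNF IgA and 14.4% with TSPAN7 IgA. With TSPAN7 IgA 12.1% lay wholly below BDNF IgA. Against untreated cells the log2 fold change was 1.23 with SE 0.15 for BDNF IgA and 0.59 with SE 0.15 for TSPAN7 IgA. TSPAN7 IgA was lower than BDNF IgA by a log2 difference of -0.64 with SE 0.14. BDNF IgA replicate 3 was the highest library, and without it the fold change of BDNF IgA was 0.92 and the difference between the antibodies was -0.34. DESeq2 called neither the TSPAN7 IgA value nor the difference between the antibodies.

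TNFSF15, which encodes TL1A, the ligand of TNFRSF25, overlapped between groups in the first series, with 84.1 to 99.5 normalised counts with IgA, 61.6 to 139.4 with IgG and 95.005 to 128.7 in untreated cells. The log2 fold change of IgA was -0.04 with SE 0.30 against IgG and -0.30 with SE 0.29 against untreated cells. In the second series it had 68.4 to 89.9 with BDNF IgA, 56.9 to 67.1 with TSPAN7 IgA and 60.7 to 74.95 untreated, and only the 2 antibodies did not overlap (log2 difference -0.27 with SE 0.20).

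**Figure D2:**
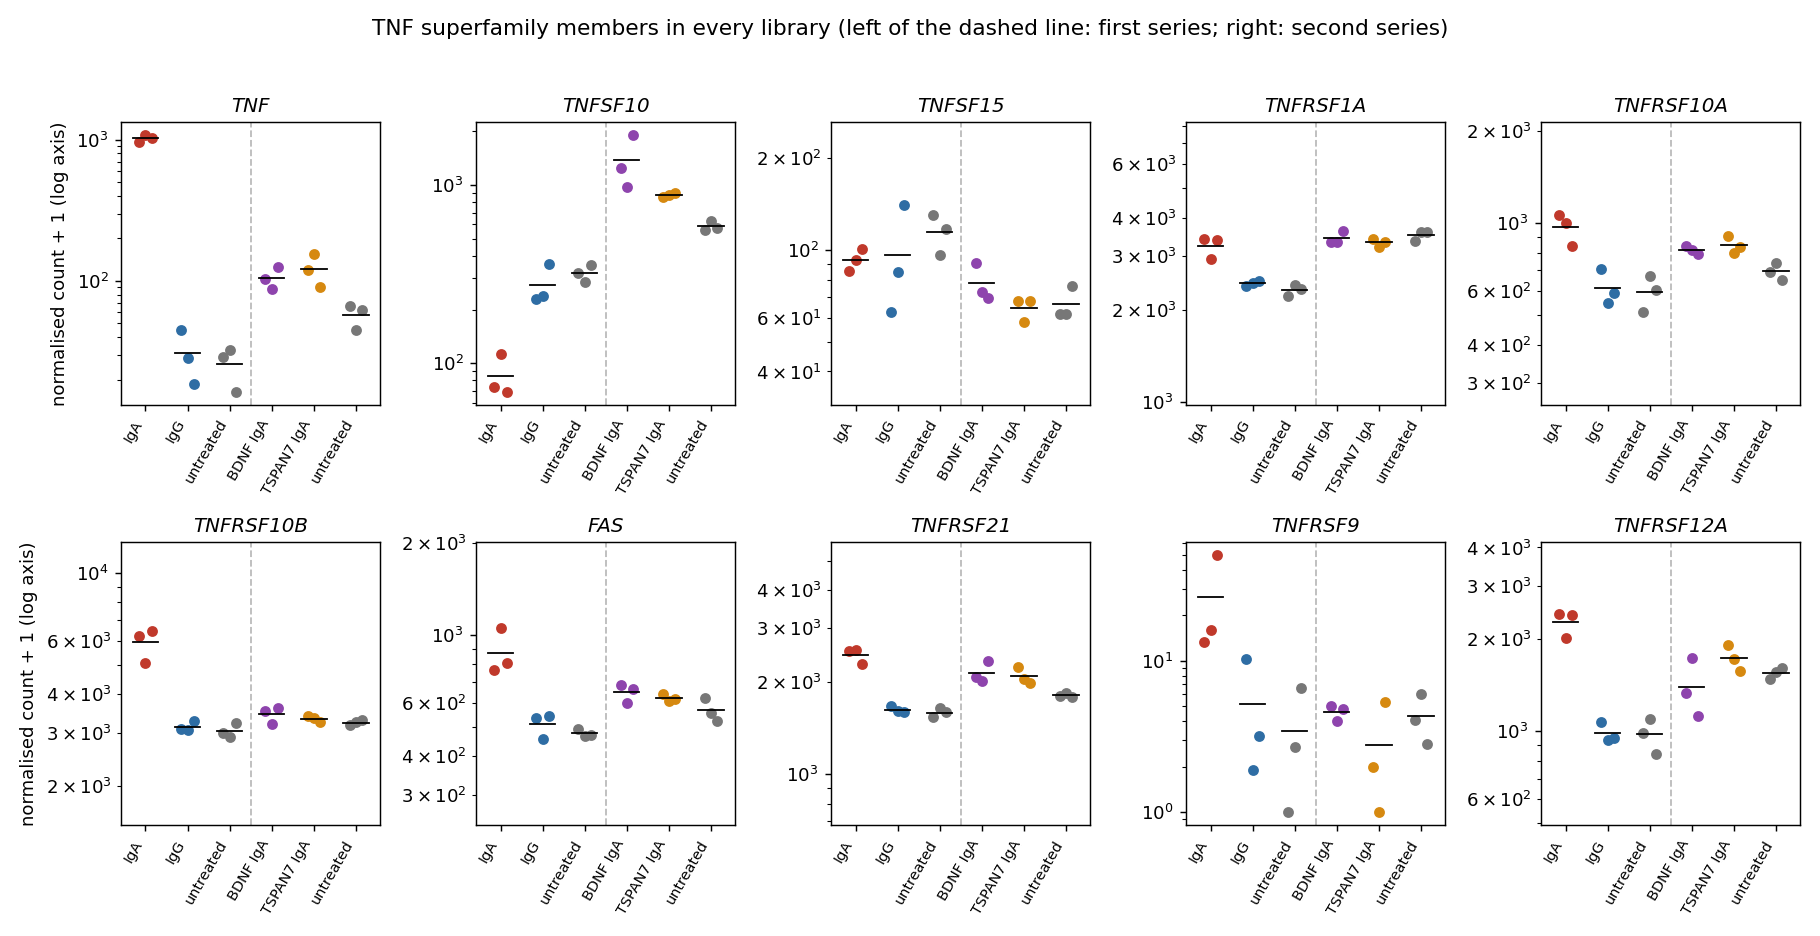
Normalised count + 1 of each of the 10 members in every library (log axis), with 1 point per library, a horizontal bar at the mean of each group, and a dashed line between the first series (IgA, IgG, untreated) and the second (BDNF IgA, TSPAN7 IgA, untreated). TNF is higher in all 3 IgA libraries than in any IgG or untreated library of the first series, TNFSF10 is lower, and the 5 member death receptors are higher.

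All 5 member death receptors were higher in each of the 3 IgA libraries than in any IgG or untreated library of the first series. So were 19.7% of all genes tested against IgG and 19.8% against untreated cells. Outside the members, the death-domain receptor NGFR rose (below), whereas TNFRSF25, another, did not. TNFRSF25 had 146 to 475 normalised counts with IgA, 437 to 539 with IgG and 370 to 493 untreated, and was not called. TNFRSF10B, the TRAIL receptor also called DR5, had 6228, 5069 and 6470 normalised counts with IgA, 3087, 3056 and 3268 with IgG and 2989, 2908 and 3216 untreated. IgG and untreated cells overlapped. Its log2 fold change was 0.92 with SE 0.11 against IgG (1.89-fold) and 0.96 with SE 0.11 against untreated cells. TNFRSF10A, the other TRAIL receptor that carries a death domain (DR4), had 1063, 999.3 and 837 with IgA, 705.6, 545 and 588 with IgG and 509, 670.1 and 604 untreated. The lowest IgA library exceeded the highest of the other 6, at a log2 fold change of 0.66 with SE 0.15 against IgG and 0.70 with SE 0.15 against untreated cells. Both TRAIL receptors were thus higher in the libraries in which their ligand was lower.

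FAS, the receptor of FAS ligand, had 765, 1048 and 806 normalised counts with IgA, 534, 455 and 542 with IgG and 492, 467 and 469 untreated. IgA replicate 2 was highest, and the log2 fold change was 0.78 with SE 0.14 against IgG and 0.88 with SE 0.14 against untreated cells. The FAS ligand gene, FASLG, did not pass the filter on low counts in either series and had 0 counts in the IgA libraries. TNFRSF1A, the receptor of TNF in most tissues, had 3405, 2925 and 3388 normalised counts with IgA, 2390.2, 2442 and 2490.2 with IgG and 2215, 2414 and 2342 untreated. Its log2 fold change was the smallest of the 5 death receptors, 0.41 with SE 0.10 against IgG and 0.48 with SE 0.10 against untreated cells. TNFRSF21, or DR6, had 2535, 2543 and 2284 with IgA, 1666, 1609 and 1592 with IgG and 1536, 1639 and 1592 untreated. It differed by 0.60 with SE 0.09 on the log2 scale against IgG and 0.63 with SE 0.09 against untreated cells.

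Among the receptors without a death domain, TNFRSF12A had 2429, 2028 and 2404 normalised counts with IgA, 1072, 938 and 949.8 with IgG and 986, 1098 and 844 untreated. Every IgA library lay above the highest of the other 6, and the log2 fold change was 1.21 with SE 0.12 against IgG (2.32-fold) and 1.23 with SE 0.12 against untreated cells. With IgA 19.7% of all genes tested lay wholly above IgG, and 19.8% wholly above untreated cells. TNFRSF9, a co-stimulatory receptor best known on T cells, had only 11, 15 and 31 counts with IgA, 10, 1 and 2 with IgG and 0, 2 and 7 untreated. It passed the filter on low counts only through the IgA libraries, so the filter itself selected for a difference. Its log2 fold change was 2.54 with SE 0.98 against IgG and 3.22 with SE 1.03 against untreated cells. It was called against untreated cells, at a count that rests on few reads, and not without IgA replicate 3 or untreated replicate 1 or 2. Without IgA replicate 3 the values were 1.68 and 2.36. In the second series it had 0 to 5 counts per library and was not fitted.

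Of the 10 members, 7 were called higher and 1 lower with IgA than with IgG (edgeR quasi-likelihood test, adjusted p under 0.05), where 12.6% of the 18012 genes tested were called higher and 11.6% lower. Against untreated cells 8 were called higher and 1 lower, beside 12.9% and 12.1% of all genes. The 8 include TNFRSF9, which passed the filter only through the IgA libraries and also enters the medians that follow. The median log2 fold change of the members was 0.72 against IgG and 0.79 against untreated cells, and that of all genes was -0.01 in both. As the members were named with such values known, these counts describe the choice. Between IgG and untreated cells 0 members were called, as were 0% of all genes higher and 0% lower. All 10 members overlapped between those groups, where 3.32% of all genes were higher and 3.43% lower without overlap, with log2 fold changes from -0.26 to 0.28 for the 9 members other than TNFRSF9, which had 0.68 with SE 1.11.

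The calls of 3 receptors depended on the scaling. With library size alone the median of all genes moved by -0.23 against IgG and -0.21 against untreated cells. The values of TNFRSF1A, TNFRSF10A and TNFRSF21 against IgG were then 0.17, 0.43 and 0.37 and none of them was called, and relative to the shifted median they were 0.42, 0.68 and 0.62. TMM factors, which measure how a library's composition departs from the others, were 0.921, 0.991 and 0.800 in the IgA libraries and between 1.03 and 1.07 in the other 6.

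In the second series TNFRSF10A had 842, 815 and 793 normalised counts with BDNF IgA, 902.8, 796 and 832 with TSPAN7 IgA and 691, 741 and 647 untreated. All 6 libraries given IgA lay above the untreated ones, at log2 fold changes of 0.24 with SE 0.07 for BDNF IgA and 0.28 with SE 0.07 for TSPAN7 IgA. The share of all genes wholly above the untreated libraries was 12.8% with BDNF IgA and 14.4% with TSPAN7 IgA. TNFRSF21 had 2079, 2017 and 2338 with BDNF IgA, 2244, 2039 and 1980.1 with TSPAN7 IgA and 1800.1, 1842 and 1784 untreated. Here too both antibodies lay above the untreated libraries, at 0.25 with SE 0.06 and 0.21 with SE 0.06.

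The other receptors overlapped with untreated cells under both antibodies. TNFRSF10B had 3198 to 3622 normalised counts with BDNF IgA, 3246 to 3390.3 with TSPAN7 IgA and 3169.7 to 3291.5 untreated. FAS had 597 to 686, 604 to 640.1 and 520.2 to 622, and TNFRSF1A had 3324 to 3613, 3217 to 3416 and 3359 to 3597. Their log2 fold changes ran from -0.08 (TNFRSF1A, TSPAN7 IgA) to 0.20 (FAS, BDNF IgA). TNFRSF12A had 1339, 1742 and 1119 with BDNF IgA, 1921, 1720.1 and 1575 with TSPAN7 IgA and 1485, 1568 and 1615.5 untreated, and varied most among the BDNF IgA libraries.

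Of the 9 members fitted in the second series, 4 were called higher with BDNF IgA (TNF, TNFSF10, TNFRSF10A and TNFRSF21), beside 4.49% of the 18732 genes tested higher and 3.18% lower. The same 4 were called higher with TSPAN7 IgA, where 4.46% of all genes were higher and 4.08% lower. Those comparisons share the untreated libraries. With BDNF IgA, leaving out 1 library ended the calls of TNF (BDNF IgA replicate 3, untreated replicate 2, log2 fold changes 0.72 to 0.99), TNFRSF10A (BDNF IgA replicates 1 and 3, untreated replicates 1 and 3, 0.19 to 0.29) and TNFRSF21 (BDNF IgA replicate 3, untreated replicates 1 and 3, 0.18 to 0.29). With TSPAN7 IgA it ended those of TNFSF10 (each TSPAN7 IgA replicate, untreated replicates 1 and 3, 0.56 to 0.64), TNFRSF10A (TSPAN7 IgA replicate 1, untreated replicates 1 and 3, 0.23 to 0.34) and TNFRSF21 (TSPAN7 IgA replicates 1 and 2, each untreated replicate, 0.15 to 0.25). Between the antibodies 1 member, TNFSF10, was called, lower with TSPAN7 IgA, beside 3.42% of all genes higher and 4.5% lower. The members' median log2 fold change was 0.22 with BDNF IgA and 0.16 with TSPAN7 IgA, and that of all genes was 0.00 in both.

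**Figure D3:**
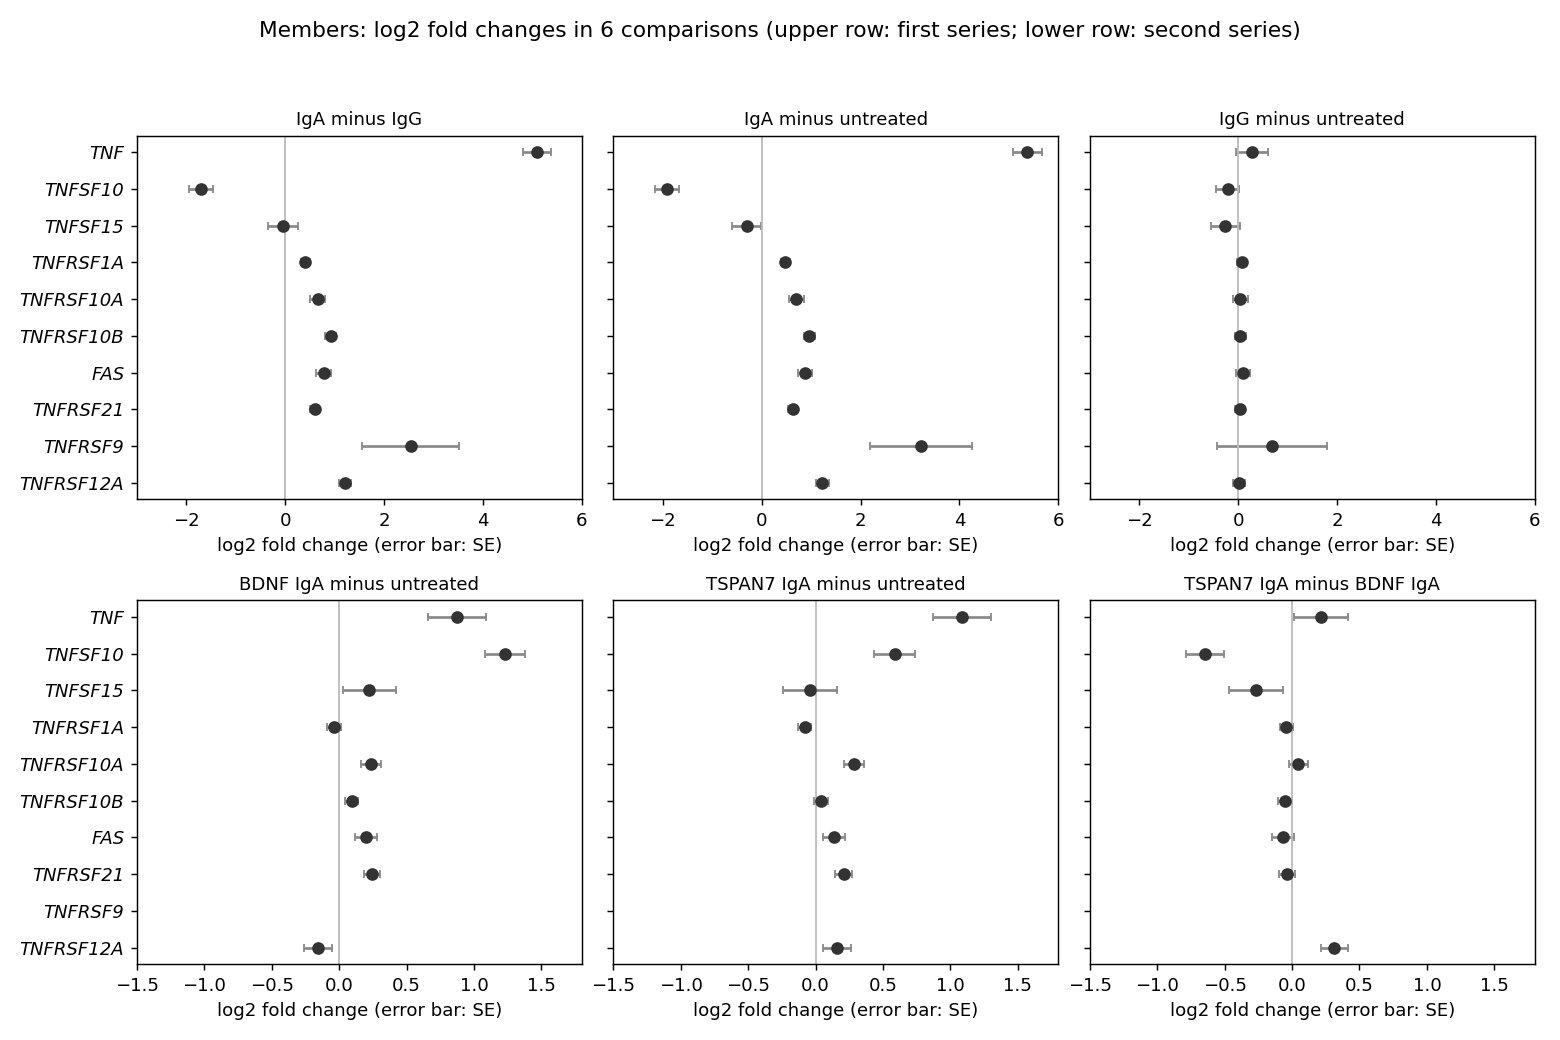
Log2 fold change of each member (point) with its standard error (bar) in 6 comparisons, the upper row from the first series and the lower row from the second, with different horizontal scales for the rows. In the upper row TNF reaches 5.09 and TNFSF10 -1.70 for IgA against IgG, and IgG against untreated cells lies near 0. In the lower row TNF is at 0.87 and 1.09 against untreated cells. TNFRSF9 was not fitted in the second series.

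The rest of the family was read from a list of 37 other ligands and receptors, and the signalling machinery from a list of 45 genes, neither named among the members. With IgA against IgG, 6 of the 21 family genes that passed the filter rose and 1 fell (edgeR, adjusted p under 0.05), with a median log2 fold change over the 21 of 0.04, in a comparison in which 12.6% of all genes rose and 11.6% fell. LTB, the lymphotoxin beta ligand, rose from 8.40, 4.55 and 4.39 normalised counts with IgG to 224, 88.9 and 360.2 with IgA, for a log2 fold change of 5.23 ± 0.67 (SE). With 4 to 9 counts in the IgG and 0 to 7 in the untreated libraries it passed the filter only through the IgA libraries, so the filter itself selected for a difference, it is 1 of the 6 only with that limit, and no p is given. NGFR, a neurotrophin receptor with a death domain, rose from 49.5, 39.1 and 29.6 to 378, 312 and 224, or by 2.94 (SE 0.29, edgeR adjusted p = 3.67e-05). Neither gene overlapped between IgA and the other 6 libraries, and 19.7% of all genes lay wholly above IgG and 19.8% wholly above untreated cells.

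The other 4 risers were CD70, the ligand of CD27 (log2 fold change 1.06, edgeR adjusted p 0.00833), TNFSF9, the ligand of TNFRSF9 (1.06, 0.0039), CD40, a receptor of antigen-presenting cells also found on epithelium (1.03, 7.29e-04), and RELT, an orphan receptor (0.63, 0.021). TNFSF14, or LIGHT, a ligand of the lymphotoxin beta receptor, fell by 0.98 on the log2 scale (edgeR adjusted p = 0.0129). All 7, LTB with its limit, were also called in the same direction against untreated cells. RELT lost its call against IgG without any 1 of the 3 IgG replicates (0.37 to 0.78 over all alternatives). TNFSF14 lost its call against IgG without IgG replicate 2, and against untreated cells, where it fell by 0.74 (edgeR adjusted p = 0.0452), without any IgA replicate or untreated replicate 2 or 3 (-0.94 to -0.61). The decoy receptors of TRAIL, TNFRSF10C and TNFRSF10D, which bind the ligand without a working death domain, were not called. TNFRSF10C had 47.97 to 52.1 normalised counts with IgA, 70.1 to 87.8 with IgG and 61.3 to 79.03 untreated. Its IgA libraries lay below the others, as in 20.6% of all genes against IgG and 20.1% against untreated cells. TNFRSF10D had 659, 767 and 474 normalised counts with IgA and 788, 762 and 661 with IgG.

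Of 44 signalling genes that passed the filter, 7 rose and 7 fell with IgA against IgG, beside 12.6% and 11.6% of all genes, with a median log2 fold change of 0.03. TNFAIP3 (A20), a ubiquitin-editing enzyme that restrains NF-kB signalling from TNF receptors, rose from 351, 294 and 292 to 5294, 4435 and 7192 normalised counts, for a log2 fold change of 4.17 ± 0.18 (SE; adjusted p by edgeR, 2.71e-08). BIRC3 (cIAP2), a ubiquitin ligase of the TNF receptor complex, rose by 4.05 with SE 0.45 (edgeR adjusted p = 7.25e-05). It had 534, 409 and 1404 with IgA and 34.6 to 59.7 with IgG, and IgA replicate 3 was the highest. BIRC2 (cIAP1) rose by 1.25 (edgeR adjusted p = 1.49e-04) and the apoptosis signal-regulating kinase MAP3K5 by 1.30 (9.44e-05). The adaptor TRAF2, the autophagy and A20-binding protein TAX1BP1 and the TAK1-binding protein TAB2 rose by 0.33 to 0.41, calls that each ended without IgG replicate 2 or IgA replicate 3 and under scaling by library size alone (0.09 to 0.51 over all alternatives).

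Of the signalling genes that fell, 6 are named here after their values were seen. The adaptor FADD fell by 0.49 (edgeR adjusted p = 0.0152), its kinase partner RIPK1 by 0.84 (0.00434), and the initiator caspases CASP8 by 0.38 (0.0188) and CASP10 by 0.57 (0.0164), all on the log2 scale. SPATA2, which brings the deubiquitinase CYLD to the TNF receptor complex, fell by 0.89 (0.00434) and the kinase IKBKB by 0.60 (0.0174). RIPK1 and SPATA2 were called under all 13 alternatives. FADD lost its call without IgG replicate 2 (-0.72 to -0.42 over the alternatives), CASP8 without IgG replicate 3 (-0.62 to -0.32), CASP10 without IgG replicate 1 or 2 (-0.80 to -0.49) and IKBKB without IgA replicate 1 or IgG replicate 3 (-0.85 to -0.49). With library size alone the split of the 82 listed genes was 9 higher and 16 lower, against 13 and 8 here. Against untreated cells, 6 family genes, among them LTB with its limit, rose and 1 fell. In the same comparison 6 signalling genes rose and 8 fell, beside 12.9% and 12.1% of all genes.

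With IgG against untreated cells 0 of the 21 family genes and 0 of the 44 signalling genes that passed the filter were called by edgeR, 0 in either list had an unadjusted p under 0.05, and DESeq2 called 0. Over all genes 89 had an unadjusted p under 0.05.

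**Figure D4:**
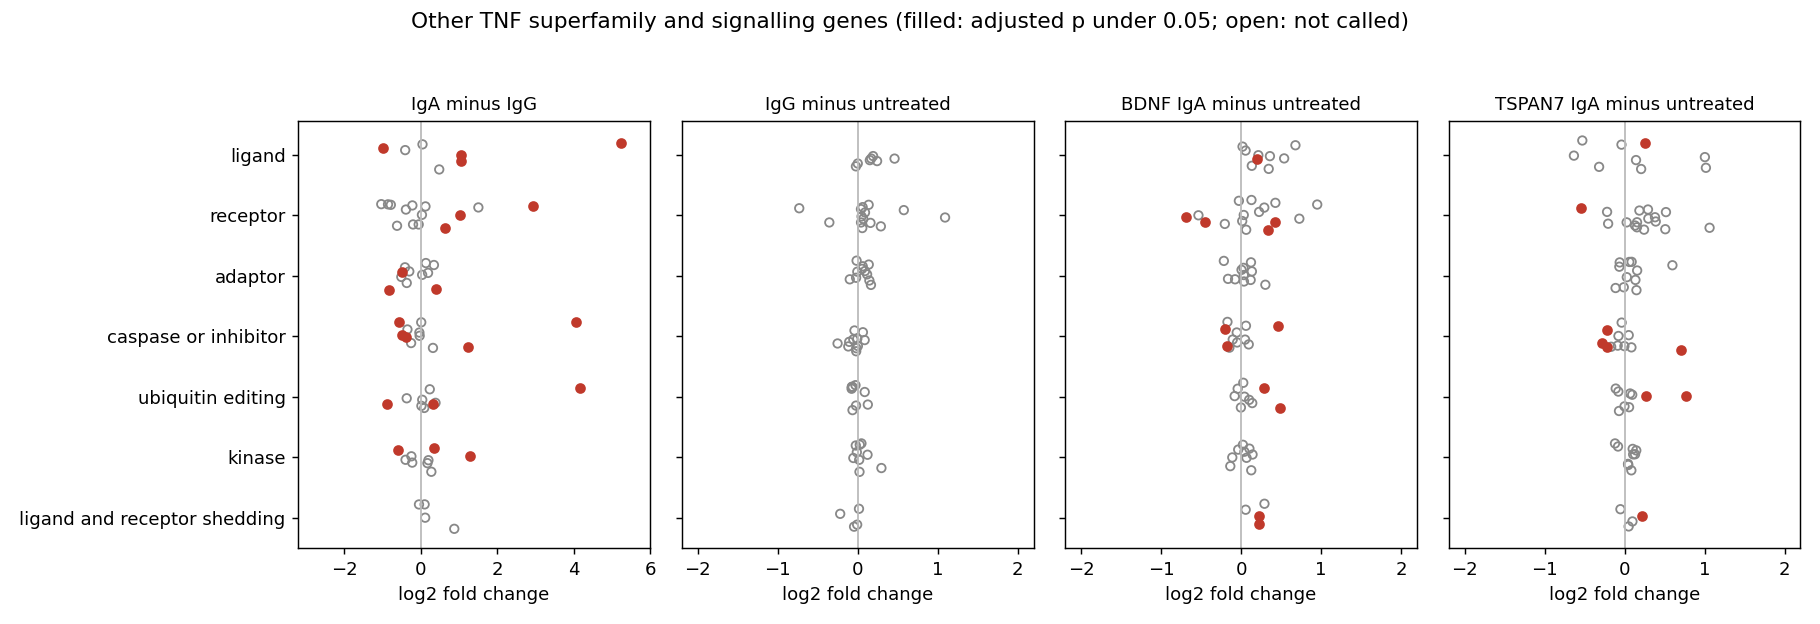
Log2 fold changes of the other TNF superfamily genes (ligand and receptor rows) and the signalling genes (other rows) in 4 comparisons, with 1 point per gene that passed the filter, filled where the adjusted p was under 0.05, and a wider horizontal scale in the first panel. With IgA against IgG the filled points reach 5.23 (LTB, which passed the filter only through the IgA libraries). With IgG against untreated cells none is filled.

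With BDNF IgA, 3 of 25 family genes rose and 2 fell against untreated cells, beside 4.49% and 3.18% of all genes. The soluble decoy receptor TNFRSF11B (osteoprotegerin), which binds RANKL and TRAIL, fell from 192 ± 3.98 to 119 ± 13.1 normalised counts, a log2 fold change of -0.69 with an edgeR adjusted p of 0.00365. TNFRSF10D, the decoy receptor of TRAIL, fell from 982, 920.5 and 992 to 721.5, 671 and 721.3, at -0.45 with SE 0.07 (edgeR adjusted p = 3.46e-04). TNFRSF25, the receptor of TNFSF15, rose by 0.42 (0.0127), CD40 by 0.34 (0.0265) and CD70 by 0.20 (0.0271). Leaving out single libraries ended the calls of TNFRSF25 (BDNF IgA replicate 1, untreated replicates 2 and 3, log2 fold changes 0.34 to 0.53), CD40 (BDNF IgA replicates 1 and 3, untreated replicates 1 and 2, 0.27 to 0.41) and CD70 (BDNF IgA replicate 3, untreated replicates 1 and 2, 0.16 to 0.24).

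With TSPAN7 IgA, CD70 rose by 0.25 (edgeR adjusted p = 0.00515) and TNFRSF10D fell by 0.55 (3.17e-05), to 724, 629 and 626 normalised counts, the only calls among the 25. In that comparison 4.46% of all genes were called higher and 4.08% lower. TNFRSF11B had 165 ± 27.9 and was not called against untreated cells.

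Among the 44 signalling genes 5 rose and 2 fell with BDNF IgA, beside 4.49% and 3.18% of all genes. With TSPAN7 IgA 4 rose and 3 fell, beside 4.46% and 4.08% of all genes. TNFAIP3 had 888, 909.9 and 995 normalised counts with BDNF IgA, 1156, 1140.4 and 1104 with TSPAN7 IgA and 650.4, 733 and 607 untreated. It rose by 0.49 with SE 0.07 (edgeR adjusted p = 1.92e-04) and by 0.77 with SE 0.07 (2.83e-07), and the 3 groups did not overlap. Among all genes 12.8% were higher without overlap with BDNF IgA and 14.4% with TSPAN7 IgA, and 11.5% were higher with TSPAN7 IgA than with BDNF IgA. BIRC3 rose by 0.71 with TSPAN7 IgA (edgeR adjusted p = 0.00226) and by 0.46 with BDNF IgA (0.0472), the latter a call that ended without untreated replicate 1, 2 or 3 or BDNF IgA replicate 1 or 3 (0.30 to 0.60). RNF31 (HOIP), the ligase that makes linear ubiquitin chains at the TNF receptor, rose by 0.29 (0.0197) with BDNF IgA and 0.27 (0.0282) with TSPAN7 IgA, and its calls ended without untreated replicate 3 (0.20 to 0.35 and 0.18 to 0.33 over the alternatives), BDNF IgA replicate 1, TSPAN7 IgA replicate 1 or 2 or, for TSPAN7 IgA, untreated replicate 1.

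The shedding enzymes ADAM10 and ADAM17 rose by 0.22 each with BDNF IgA (edgeR adjusted p = 0.00261 and 0.0176), and ADAM10 by 0.21 (0.00339) with TSPAN7 IgA. CFLAR (c-FLIP), which blocks caspase-8 at death receptors, fell by 0.28 with TSPAN7 IgA (7.04e-04). The caspase CASP6 fell by 0.22 (0.0244) with TSPAN7 IgA and by 0.21 (0.0396) with BDNF IgA. Leaving out single libraries ended the calls of ADAM17 (BDNF IgA replicates 1 and 3, untreated replicates 1 and 2, 0.17 to 0.29) and CASP6 (untreated replicates 2 and 3, replicates 1 and 3 of either antibody, -0.26 to -0.17).

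The genes whose pattern was most like that of TNF, by Pearson's r of log2(normalised count + 1) centred on the untreated mean of the series over 18 libraries, among 13842 genes, were CCL20 (0.988), IER3 (0.983), CXCL3 (0.983), TNFAIP3 (0.980) and SEMA3C (0.980). For TNFSF10 they were ENPP5 (0.971), MBTD1 (0.969), RNF114 (0.968), PIK3CD (0.964) and IFT80 (0.963). These values pool both series after centring, and the libraries share groups and untreated controls.

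Reads were not stated to be assigned by strand. FAS overlaps ACTA2, TNFRSF12A overlaps CLDN6 and TNFRSF10B overlaps RHOBTB2 on the opposite strand, TNFRSF10A overlaps its antisense RNA, and the TRAIL receptors are close paralogs, so part of their counts may belong to a neighbour or copy.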

How the data were processed

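Total RNA was prepared with a kit for fixed tissue and sequenced as paired ends. Per the labels, reads were handled with bcl2fastq 2.20.0.422, cutadapt 1.8.1 and HTSeq 0.6.1 on hg19, whereas the methods of the study name STAR and featureCounts on GRCh37. The values the authors deposited are raw counts per gene, with no normalization, in 1 table per series. Groups and replicate numbers came from sample titles. The second table had 57820 rows, and its 2055 exact duplicates (1.99% to 2.46% of counts) were dropped, which left 55765 rows in both. Replicates differed by more than sampling noise (chi-square per degree of freedom 3.91 to 232).

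Each series was fitted with its 9 libraries in edgeR 4.0.16 (R 4.3.3) with TMM scaling, filterByExpr and the two-sided quasi-likelihood test, with Benjamini-Hochberg adjustment over all genes tested and calls at an adjusted p under 0.05. Standard errors come from the log2 fold change and its F statistic. RPKM used the joined length of all annotated exons of a gene, from GENCODE on GRCh37. Members and lists were chosen with earlier results of these data known. Members are all named. Of the lists, all called family genes are named, and signalling genes by size of change (at most 8 per comparison, a mean of 50 or more normalised counts in a group, no overlap), with further signalling genes added after their values were seen. 1 listed gene is counted but not reported here. Alternatives were DESeq2 1.42.0, RLE size factors, library size alone, no filter, a replicate block, no mitochondrial or ribosomal RNA genes, only the 6 libraries compared, and leaving out each replicate. The fit was tested on simulated data. Reads carry no molecular identifiers, so precision was taken from replicates.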

Additional observations from a re-analysis of the deposited data

Results flagged for a closer look

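The difference between TSPAN7 IgA and BDNF IgA, tested directly in the fit of the second series, passed an edgeR adjusted p of 0.05 in 5 listed genes that are not members. Over all genes 3.42% were called higher and 4.5% lower. EDA, the ectodysplasin ligand, had 87.2 ± 19.2 normalised counts with TSPAN7 IgA and 138 ± 16.1 with BDNF IgA (SD, n = 3), a log2 fold change of -0.66 (edgeR adjusted p = 0.0169), called under 10 of 13 alternatives and not without BDNF IgA replicate 3 or TSPAN7 IgA replicate 2 or 3. TNFSF14 was at -0.53 (0.0447; 311 ± 93.7 against 449.8 ± 101, overlapping) and TNFRSF11B at 0.48 (0.0472; 165 ± 27.9 against 119 ± 13.1), each called under 7 of 13. CFLAR was at -0.17 (0.0296), called under 7 of 13, and TNFAIP3 at 0.28 (0.0166), called under 10 of 13. DESeq2 did not call TNFSF14, and leaving out single libraries of either antibody ended the calls of the others. The values over the alternatives ran from -0.86 to -0.55 for EDA, from -0.80 to -0.37 for TNFSF14, from 0.33 to 0.57 for TNFRSF11B, from -0.19 to -0.14 for CFLAR and from 0.25 to 0.34 for TNFAIP3.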

How the results depend on the processing

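Of the 82 listed genes other than members, 21 family and 44 signalling genes passed the filter in the first series, and 25 and 44 in the second. Of these, 21 were called with IgA against IgG and 21 against untreated cells, with 14 to 29 and 14 to 28 when 1 replicate was left out. LTB, which passed the filter only through the IgA libraries, is in both counts. Of all genes, 12.6% were called higher and 11.6% lower against IgG, and 12.9% and 12.1% against untreated cells. For IgG against untreated cells the count was 0 under every alternative run. With BDNF IgA 12 were called (5 to 18 with 1 replicate left out, 5 of them without BDNF IgA replicate 1 or untreated replicate 2), with TSPAN7 IgA 9 (7 to 10), and between the antibodies 5 (1 to 13, 13 without BDNF IgA replicate 2). The shares of all genes called higher and lower were 4.49% and 3.18%, 4.46% and 4.08%, and 3.42% and 4.5%. In a fit of just the 6 libraries compared, 14 were called with TSPAN7 IgA and 2 between the antibodies. Library sizes without TMM factors gave 10 higher and 12 lower calls with IgA against untreated cells, where TMM gave 12 and 9, and the causes were not tested. The fit with a replicate block called 20, 22, 0, 14, 10 and 6 in the 6 comparisons. Correlations of same-numbered libraries ran from -0.0657 to 0.217. Only 1 of 9 in the first series and 0 of 9 in the second were over 0.1, so the numbers were not taken to pair the samples. The same number correlated best in 19 of 36 cases, where equal odds would give 12. Of 572 recomputed values of the called family genes (LTB included) and the signalling genes named by size of change, 509 stayed on their side of the threshold. The other 63 lost their call, and 0 changed sign. Signalling genes added after their values were seen are not in that count. With IgA against IgG these ranged from TRAF2 and TAX1BP1, each called under 5 of 13 alternatives, to RIPK1 and SPATA2, called under all 13. BIRC3 with BDNF IgA was called under 6 of 13. Of 26 calls of members over the comparisons, among them TNFRSF9 against untreated cells, 13 held under every alternative and 0 changed sign. Depth limits TNFRSF9, with at most 31 counts per library.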
